A study of Mus musculus with 6 samples.

Results

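The genes examined here encode the matrix metalloproteases (Mmp), the membrane-bound ADAMs, the secreted ADAMTS proteases with their ADAMTS-like relatives (Adamtsl), and the TIMPs, their tissue inhibitors. Members were taken by name, by a rule set with earlier results of these data known. They are all genes whose symbol in the array's annotation is Mmp, Adam, Adamts, Adamtsl or Timp followed directly by a number. Each was read from probe sets assigned to 1 gene. This gave 70 of 18193 genes and 124 of 45037 probe sets, with 18 Mmp, 28 Adam, 15 Adamts, 5 Adamtsl and 4 Timp genes. All are mouse genes and all 70 were matched to RefSeq by their Entrez ID.

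Transcripts of CD73+ AD-MSCs were set against those of CD73- AD-MSCs on 3 Affymetrix arrays each. AD-MSCs, the mesenchymal stromal cells of fat, came from the groin of adult C57BL/6 mice with no genetic change or treatment named. Both subgroups were sorted from these cells by flow cytometry on CD73, the surface enzyme that makes adenosine and is encoded by Nt5e, and then grown in low-glucose medium with serum to the fifth passage. How many mice were pooled and how pure the sorted cells were is not given in the sources used here. Separate cultures behind the 3 arrays are not named in the labels either. The p-values therefore rest on the spread between arrays, which may be technical.

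Proteases of these families work with a zinc ion in their active site. MMPs are made as inactive proenzymes and cut collagens and other matrix proteins once activated, and TIMPs block them by filling the active site. ADAMs sit in the cell membrane and release the outer parts of growth factors, receptors and adhesion proteins, and ADAMTS proteases cut proteoglycans and collagen propeptides outside the cell. Stromal cells of fat use them to remodel the matrix in which vessels and adipocytes grow.

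Values are the deposited log2 signals, and a difference is CD73+ minus CD73- on that scale, so that 1 is a doubling. Array medians lay between 5.28 and 5.37, and probe sets had a median within-subgroup SD of 0.088. The bacterial poly-A controls (12 probe sets), normally added to the RNA before labelling, were lower by a mean of 0.93 in CD73+ AD-MSCs. Scaling to them moves the median difference of all probe sets from close to 0 to 0.93 and puts all 70 members above 0, so every direction below is relative to the deposited scale. Nt5e had 7.84, 7.60 and 7.74 in CD73+ and 7.29, 6.39 and 6.84 in CD73- AD-MSCs, a difference of 0.88 (SE 0.20, limma adjusted p = 0.0218), and its call ended when either CD73+ replicate 1 or 3, or CD73- replicate 3, was left out (highest limma adjusted p = 0.0763). Its second brightest probe set had a difference of 0.033 (limma adjusted p = 0.798) and the mean of its probe sets 0.27 (limma adjusted p = 0.101). On the arrays the sort marker thus passed on the brightest probe set and not by these readings, nor in the methods' t-test. Apart from the arrays, the paper reports a significant CD73 difference between the sorted subgroups, from real-time PCR and Western blot. Over all genes 10.1% were higher and 12.6% lower, the shares beside which each marker count below stands. Of 10 measured stromal markers 7 were higher and none was lower. Nt5e, the gene of the sort marker, is 1 of these 7 and enters the sum that follows. Their summed linear signal was 22714 to 22860 in CD73+ and 16336 to 16566 in CD73- AD-MSCs. The part of these markers in the rises described here was not tested. Endothelial, adipocyte, epithelial and Schwann cell markers had 0 calls each. Of 11 measured leukocyte markers 2, Cd14 and Csf1r, were higher by 0.50 and 0.49. The summed linear signal of the leukocyte list was 481 to 500 in CD73+ and 396 to 435 in CD73- AD-MSCs. The other 9 did not pass, with differences from -0.13 for Ptprc to 0.19 for Cd68. Every CD73+ array was above every CD73- array for Cd68 and for Lyz2 (0.14), both macrophage markers. Ptprc, the pan-leukocyte marker CD45, had a mean log2 signal of 3.06 in CD73+ and 3.19 in CD73- AD-MSCs, and the myeloid marker Itgam had 3.25 in CD73+ and 3.32 in CD73- AD-MSCs. Among 4 measured skeletal muscle markers Acta1 rose by 0.38, while Des, Myog and Myod1 did not pass.

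Members that changed were nearly all higher in CD73+ AD-MSCs, and they came from every family. Of 70 member genes 14 were higher and 1 was lower (limma adjusted p under 0.05), judged by the brightest probe set of each gene, the one of highest mean signal. Among all 18193 genes 10.1% were higher and 12.6% lower. Over all 70 the difference was above 0 in 48 and below 0 in 22 on the deposited scale. The genes that rose were Adam8, Adamts4, Timp1, Mmp23, Adamts12, Adamts5, Adamtsl4, Adam12, Mmp2, Mmp14, Adamts7, Adam10, Adam19 and Adam17, and Adam21 fell. The median difference was 0.048 over the members and -0.018 over all genes. On the level of probe sets 37 of 124 were higher and 2 lower, where 9.79% and 9.11% of all 45037 were. In 16 member genes every CD73+ array lay above every CD73- array and in 5 below, against 18.1% and 22.7% of all genes. Since whole cell populations were measured, more cells that express a gene and more RNA per cell cannot be told apart. For Adam8, Adamts4, Timp1, Mmp23, Adam12, Adamts5, Mmp2 and Mmp14 the call held in all 19 alternatives that were run. These include poly-A scaling, which put all 70 members higher and so could not end such a call. Adam8 and Timp1 are read by 1 probe set each, so for them the alternatives with other probe sets read the same one again.

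**Figure D1:**
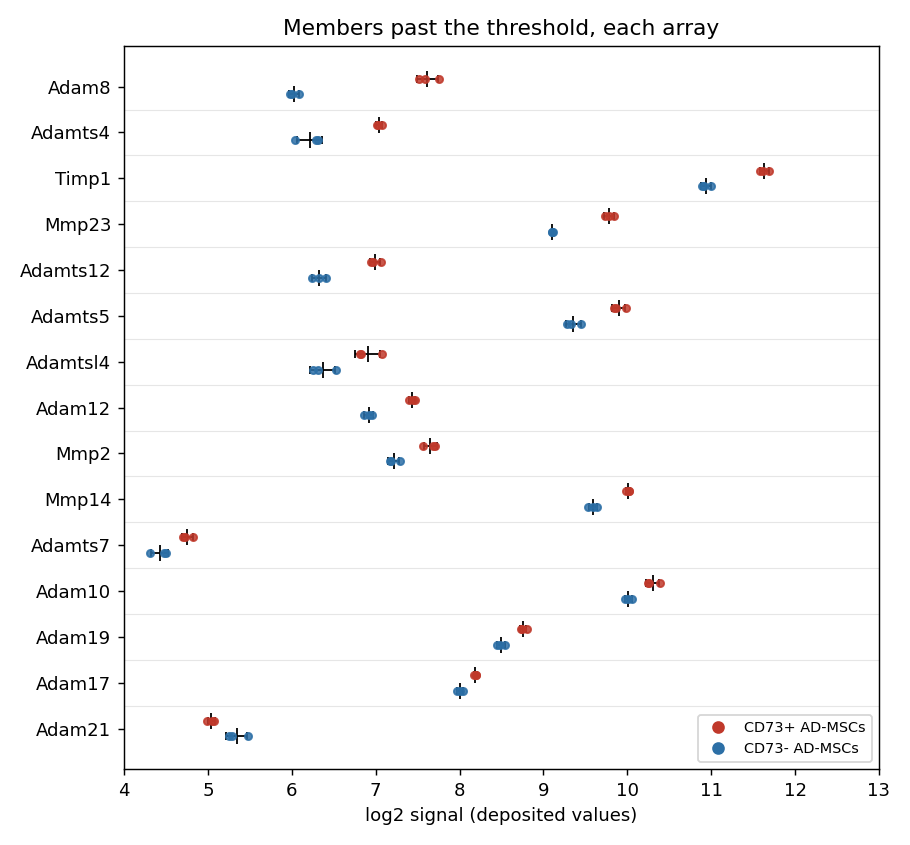
Log2 signal of the 15 member genes past the threshold on each array (horizontal axis), with red points for the 3 CD73+ and blue points for the 3 CD73- arrays, a black tick at the mean and a bar of 1 SD. Red and blue do not overlap in any row, and Adam21 is the one gene with red to the left on the deposited scale, a side that turns after poly-A scaling.

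Promoter sequences are shown for 3 genes that rose and, beside them, for Mmp13, one of a run of Mmp genes on chromosome 9 that did not pass, so that the letters they hold can be compared. RefSeq promoters of GRCm38.p6 (250 bases before to 50 after the first listed start) were given for 41 of the 70 members, 9 of them among the genes that rose. Capitals mark 4 motifs searched on both strands: the AP-1 letters TGAGTCA or TGACTCA, the Sp1 box GGGCGG or CCGCCC, the TATA letters TATAAA or TTTATA, and the PEA3 letters AGGAAG or CTTCCT. No 2 matches overlapped in these windows.
Adam8, chr7:139992513-139992812, minus strand: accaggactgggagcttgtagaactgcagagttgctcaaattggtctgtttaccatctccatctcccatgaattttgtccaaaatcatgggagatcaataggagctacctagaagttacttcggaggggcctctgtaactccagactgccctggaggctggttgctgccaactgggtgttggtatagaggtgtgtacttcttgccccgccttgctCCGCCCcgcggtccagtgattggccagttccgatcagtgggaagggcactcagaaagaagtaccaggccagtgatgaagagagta
Timp1, chrX:20869916-20870215, plus strand: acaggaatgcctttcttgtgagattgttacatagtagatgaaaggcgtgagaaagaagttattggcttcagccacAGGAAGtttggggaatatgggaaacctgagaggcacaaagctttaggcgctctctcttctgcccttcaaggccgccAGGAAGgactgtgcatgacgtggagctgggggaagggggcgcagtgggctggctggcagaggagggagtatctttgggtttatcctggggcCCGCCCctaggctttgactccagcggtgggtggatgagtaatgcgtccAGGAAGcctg
Mmp14, chr14:54431348-54431647, plus strand: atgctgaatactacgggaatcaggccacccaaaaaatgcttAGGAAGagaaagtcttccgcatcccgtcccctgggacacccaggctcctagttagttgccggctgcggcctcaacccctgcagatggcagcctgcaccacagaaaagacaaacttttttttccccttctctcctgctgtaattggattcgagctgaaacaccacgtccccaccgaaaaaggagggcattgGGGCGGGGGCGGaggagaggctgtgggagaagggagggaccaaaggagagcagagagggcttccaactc
Mmp13, chr9:7272264-7272563, plus strand: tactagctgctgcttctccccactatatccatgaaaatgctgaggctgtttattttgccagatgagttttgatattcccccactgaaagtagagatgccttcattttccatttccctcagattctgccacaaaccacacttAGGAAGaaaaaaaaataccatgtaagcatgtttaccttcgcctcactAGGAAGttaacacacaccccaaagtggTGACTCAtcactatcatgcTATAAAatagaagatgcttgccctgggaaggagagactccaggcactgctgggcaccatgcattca
Adam8 has 1 Sp1 match, Timp1 has 1 Sp1 and 3 PEA3 matches, and Mmp14 has 1 PEA3 match and a pair of Sp1 matches side by side just before the start. Mmp13 has AP-1 letters from base -35, TATA letters from base -16 and 2 PEA3 matches, counted from the start. AP-1 letters were in 7 of 41 member promoters, against 5.17% of all 27025 promoters, and 6 of these 7 belong to the chromosome 9 run. TATA letters were in 12 of 41 (14.2% of all promoters), Sp1 letters in 19 of 41 (35.9%) and PEA3 letters in 17 of 41 (35.1%). That run, with 9 of the 41 promoters and none of the genes that rose, held 8 of the TATA and 0 of the Sp1 promoters. Of the 9 promoters of genes that rose, AP-1 and TATA letters were each in 0, and Sp1 and PEA3 letters in 6 each. A match describes letters in a short window and not the binding of a factor, and no match says only that the letters are not in it.

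Among the ADAMs, the 9 proteases known from many somatic tissues held all 5 rises of the family's 28 genes, where 10.1% of all genes were higher. These 5 lay in the upper groups by mean signal described below, where 16.9% of all genes were higher. Adam8, a protease best known from leukocytes that also sheds adhesion proteins, had 7.58, 7.76 and 7.51 in CD73+ and 6.00, 6.09 and 5.98 in CD73- AD-MSCs. All 3 CD73+ arrays stood far above the others, a rise of 1.59 or 3.02-fold (SE 0.078, limma adjusted p = 9.56e-05). That was the largest difference of the 70 members. The 2 leukocyte markers named above were also higher, and their part in the Adam8 result was not tested. Adam12, which acts on growth factor precursors in muscle and stroma, had 7.45, 7.40 and 7.47 in CD73+ and 6.96, 6.86 and 6.92 in CD73- AD-MSCs, again without overlap. It rose by 0.52 (SE 0.057, limma adjusted p = 0.00109), and its other probe set by 0.60.
Adam10, the sheddase that starts Notch cleavage, had 10.25, 10.26 and 10.40 in CD73+ and 10.06, 10.00 and 9.97 in CD73- AD-MSCs. These values rose by 0.29 (SE 0.064, limma adjusted p = 0.0185), as did a dimmer probe set by 0.45, while the remaining ones had 0.21 and 0.080 and missed the threshold. Adam17, which releases TNF and ligands of the EGF receptor, had 8.17, 8.20 and 8.20 in CD73+ and 8.04, 8.003 and 7.97 in CD73- AD-MSCs. The rise was small, at 0.19 (SE 0.053, limma adjusted p = 0.049), and larger on the other probe sets, at 0.42 and 0.49. Adam19, a protease that cuts neuregulin, rose by 0.27 (limma adjusted p = 0.0164). On the brightest probe set the Adam17 call ended without any 1 of the 6 arrays (limma adjusted p = 0.0796 to 0.144). Without CD73- replicate 2 the Adam10 call ended (limma adjusted p = 0.0652), and so did that of Adam19 when CD73+ replicate 1 or 2, or CD73- replicate 1, was left out (limma adjusted p up to 0.0694).
Adam15, which binds integrins, had a difference of 0.25 (limma adjusted p = 0.112) when read by its brightest probe set and rose on the other 3, by 0.45, 0.51 and 0.56. The brightest is of a type (name ending in _x_at) whose probes can also bind other transcripts. Without CD73- replicate 3 it passed as well (0.34, limma adjusted p = 0.0374). Adam9, another widely expressed sheddase, had a difference of 0.052 (95% interval -0.080 to 0.18). Adam28 and Adam33 did not pass, at 0.025 and -0.044. The 3 neuronal ADAMs without protease activity, Adam11, Adam22 and Adam23, did not pass, with differences from 0.082 to 0.19.
Of 16 ADAMs known mainly from testis or epididymis 1 was lower and none higher, where 12.6% and 10.1% of all genes were. All 16, with Adam21, lay in the lower groups by mean signal described below, where 3.33% of all genes were higher. In the lowest of these groups 49 of 4548 genes were lower, and in the next 222 of 4548. Their differences ran from -0.30 to 0.14. Adam21 had 5.07, 4.99 and 5.05 in CD73+ and 5.25, 5.29 and 5.48 in CD73- AD-MSCs, all 3 CD73+ arrays below the others. It fell by 0.30 (SE 0.075, limma adjusted p = 0.0289) on the deposited scale and was higher by 0.62 after poly-A scaling. The call ended without any 1 of the CD73+ arrays or CD73- replicate 2 (limma adjusted p up to 0.0994). Adam7 had a difference of -0.18 without overlap and did not pass (limma adjusted p = 0.095). It was lower under quantile normalization and under cyclic loess (limma adjusted p = 0.047 and 0.046).

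In the ADAMTS family 4 of 15 genes rose and none fell on the brightest probe set, where 10.1% and 12.6% of all genes did. Those that rose were the aggrecanases Adamts4 and Adamts5 and the related pair Adamts7 and Adamts12. Adamts4, an aggrecanase, had 7.03, 7.01 and 7.08 in CD73+ and 6.31, 6.29 and 6.04 in CD73- AD-MSCs. The subgroups were well apart, with a rise of 0.83 (SE 0.083, limma adjusted p = 0.000786) and of 0.75 on the other probe set. Adamts5, the other main aggrecanase, had 9.86, 9.84 and 9.99 in CD73+ and 9.45, 9.33 and 9.28 in CD73- AD-MSCs. It rose by 0.54 (SE 0.072, limma adjusted p = 0.00229), and 2 further probe sets both rose by 0.55, while the dimmest, at 0.10, did not pass. Adamts12, which cuts cartilage oligomeric matrix protein, had 7.06, 6.96 and 6.95 in CD73+ and 6.32, 6.41 and 6.25 in CD73- AD-MSCs, without overlap. The rise was 0.67 (SE 0.067, limma adjusted p = 0.000786), and a second probe set with signals near the bottom of the arrays had 0.14 and did not pass. Adamts7, a close relative of Adamts12, rose by 0.32 (limma adjusted p = 0.0192), a call that ended when CD73+ replicate 1 or 3, or CD73- replicate 2, was left out (limma adjusted p up to 0.0624).
Adamts1, a protease of versican and aggrecan, had 8.44, 8.54 and 8.42 in CD73+ and 8.36, 8.20 and 8.30 in CD73- AD-MSCs. Although no CD73+ array was below a CD73- array, the difference of 0.18 did not pass (limma adjusted p = 0.113). Adamts1 passed when probe sets under the median level were dropped (limma adjusted p = 0.0393) and with a trend in eBayes (limma adjusted p = 0.0303). Adamts9, which also cuts versican, had 0.33 (limma adjusted p = 0.0883) on the brightest probe set and rose by 0.74 on the dimmest of 3. Without CD73- replicate 3 the brightest passed too (0.43, limma adjusted p = 0.0303). Adamts6 and Adamts16 each had a brightest probe set that did not pass (0.041 and -0.022) and a second that rose, by 0.40 and 0.37. In Adamts3, a procollagen protease, the second probe set fell by 0.25 at signals between 2.50 and 2.84, near the lowest of the arrays. Besides Adamts1, 6 genes of the family (Adamts8, Adamts10, Adamts15, Adamts18, Adamts19 and Adamts20) did not pass on any probe set.
Adamtsl4, a fibrillin-binding protein without a protease domain, had 6.82, 7.07 and 6.82 in CD73+ and 6.32, 6.25 and 6.53 in CD73- AD-MSCs. It rose by 0.54 (SE 0.10, limma adjusted p = 0.00946). Of the 4 other ADAMTS-like genes none passed on its brightest probe set, with differences from -0.17 for Adamtsl5 to 0.17 for Adamtsl1. On both probe sets of Adamtsl5 every CD73+ array lay below every CD73- array, and the dimmer had -0.25 (limma adjusted p = 0.0532). The mean of the Adamtsl5 probe sets passed as lower, at -0.21 (limma adjusted p = 0.0178). A dimmer probe set of Adamtsl1 rose by 0.27.

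Of the MMPs, the gelatinase Mmp2 and the membrane-bound Mmp14 and Mmp23 were higher, and no secreted collagenase or stromelysin passed. These rises are 3 of 18 genes, where 10.1% of all genes were higher. Mmp14, a membrane collagenase that activates the proenzyme of Mmp2 on the cell surface, had 10.02, 9.98 and 10.02 in CD73+ and 9.64, 9.59 and 9.54 in CD73- AD-MSCs. The subgroups did not overlap, and the rise was 0.42 (SE 0.056, limma adjusted p = 0.0024), with 0.72 and 0.36 on the other probe sets. Mmp2, which cuts denatured collagen and collagen IV, had 7.68, 7.56 and 7.71 in CD73+ and 7.18, 7.29 and 7.18 in CD73- AD-MSCs. It rose by 0.44 (SE 0.066, limma adjusted p = 0.00396) and by 0.38 on its other probe set. Mmp23, a membrane MMP of unusual domain structure, had 9.78, 9.84 and 9.73 in CD73+ and 9.10, 9.10 and 9.11 in CD73- AD-MSCs. This was the largest rise among the MMPs, 0.68 (SE 0.056, limma adjusted p = 0.000381), and the second probe set rose by 0.89.
Mmp9, the other gelatinase, had 5.18, 5.13 and 5.42 in CD73+ and 5.33, 5.08 and 5.26 in CD73- AD-MSCs, with a difference of 0.024 (95% interval -0.21 to 0.25). Mmp3, the stromelysin, had 4.56, 4.40 and 4.02 in CD73+ and 4.18, 4.10 and 4.38 in CD73- AD-MSCs, overlapping values at low signal. Mmp13, the main rodent collagenase, had 3.51, 4.18 and 3.45 in CD73+ and 3.34, 3.29 and 3.48 in CD73- AD-MSCs. Its CD73+ replicate 2 stood apart from the other arrays, and the difference of 0.35 did not pass (limma adjusted p = 0.265). The other membrane-type genes Mmp16, Mmp17 and Mmp24 had differences from 0.0038 to 0.040 that did not pass.
In RefSeq, 10 Mmp genes follow each other on chromosome 9 with 0 other protein-coding genes between them. Of these 9 were measured (Mmp1a, Mmp1b, Mmp3, Mmp7, Mmp8, Mmp10, Mmp12, Mmp13 and Mmp20), and none passed, with differences from -0.16 to 0.35. Their mean signals lay below the median of all probe sets, so that changes in them may not have been detectable. The secreted Mmp11 and Mmp19, which lie elsewhere, had 0.085 and 0.20 and did not pass.

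**Figure D2:**
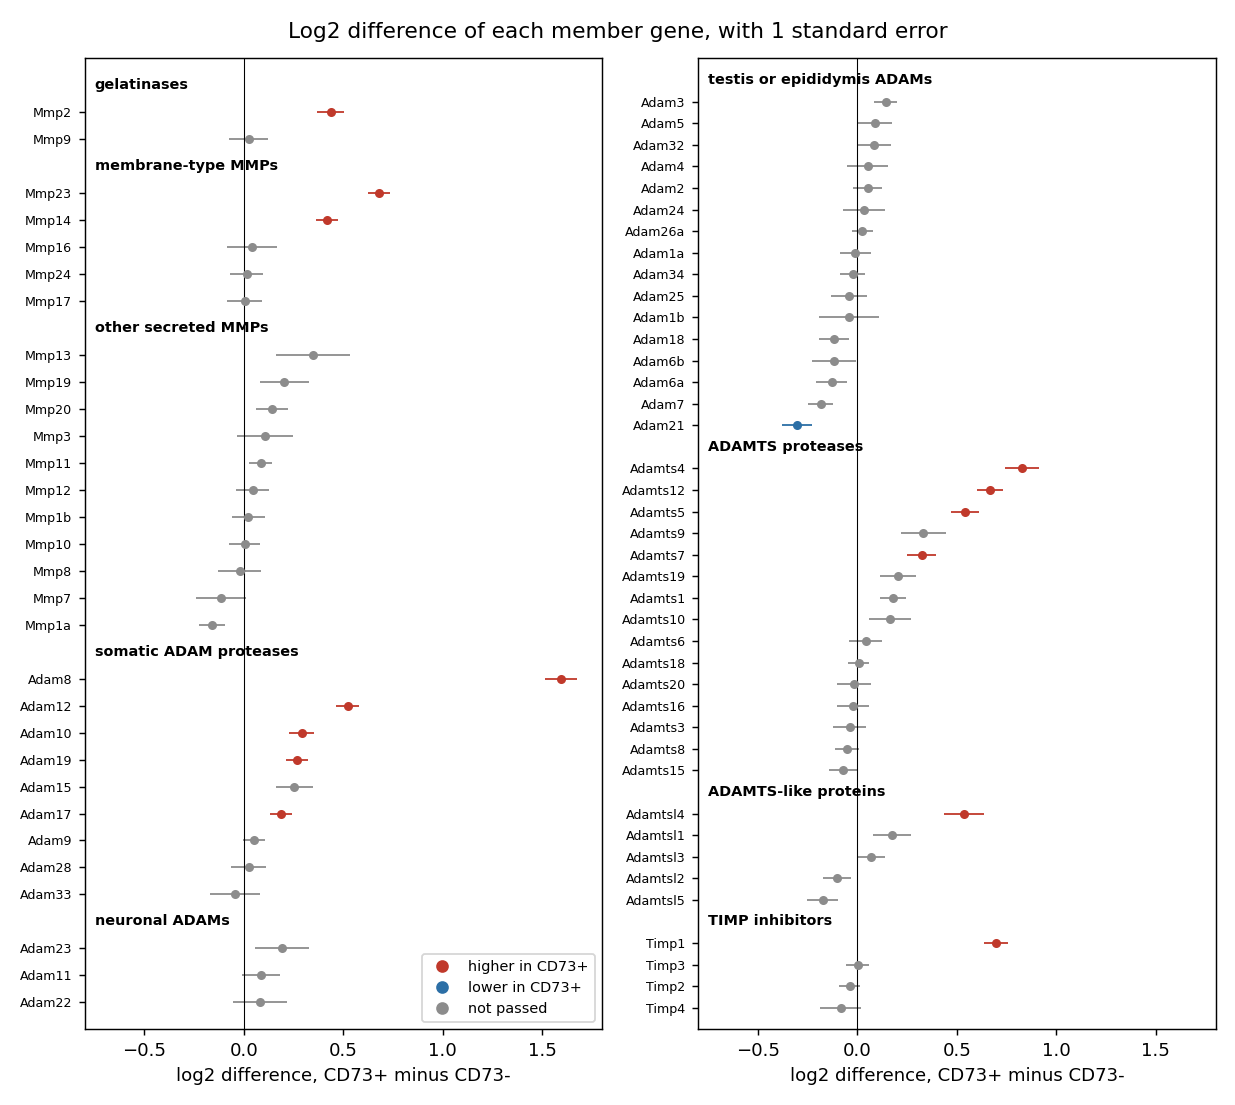
Each of the 70 member genes by its log2 difference (CD73+ minus CD73-, horizontal axis), grouped by kind, with bars of 1 standard error from limma. Red points were higher, the blue point lower and grey points not past an adjusted p of 0.05 on the deposited scale, running from 1.59 for Adam8 to -0.30 for Adam21, while after poly-A scaling all lie above 0.

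Of the 4 inhibitors Timp1 rose, where 10.1% of all genes were higher, and for Timp2 the call depended on the probe set. Timp1, a broad inhibitor of secreted MMPs, had 11.62, 11.58 and 11.69 in CD73+ and 10.91, 11.00 and 10.89 in CD73- AD-MSCs. Every CD73+ array was above every CD73- array, with a rise of 0.70 (SE 0.061, limma adjusted p = 0.000483). Timp2, which both inhibits MMPs and takes part with Mmp14 in activating Mmp2, had 12.43, 12.41 and 12.40 in CD73+ and 12.42, 12.47 and 12.47 in CD73- AD-MSCs where it was read by the brightest probe set. The difference there was -0.038 (95% interval -0.16 to 0.085) at signals within the highest 1% of the arrays. On each of its 5 other probe sets it rose, by 0.45, 0.61, 0.94, 0.65 and 0.69, with adjusted p from 0.000254 to 0.00173 from limma. The mean of the 6 probe sets rose by 0.55 (limma adjusted p = 0.000257).
Timp3, the inhibitor bound to the matrix that also blocks Adam17 and the aggrecanases, had 11.55, 11.53 and 11.64 in CD73+ and 11.59, 11.59 and 11.53 in CD73- AD-MSCs. Its difference was 0.0011 (95% interval -0.14 to 0.14), and the other 3 probe sets, at 0.10, -0.0015 and 0.20, did not pass. On those at 0.10 and 0.20 every CD73+ array was above every CD73- array. Timp4 had 4.99, 5.26 and 4.92 in CD73+ and 5.02, 5.21 and 5.20 in CD73- AD-MSCs, overlapping, and its difference of -0.083 did not pass on this probe set, nor did that of -0.038 on the other.

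**Figure D3:**
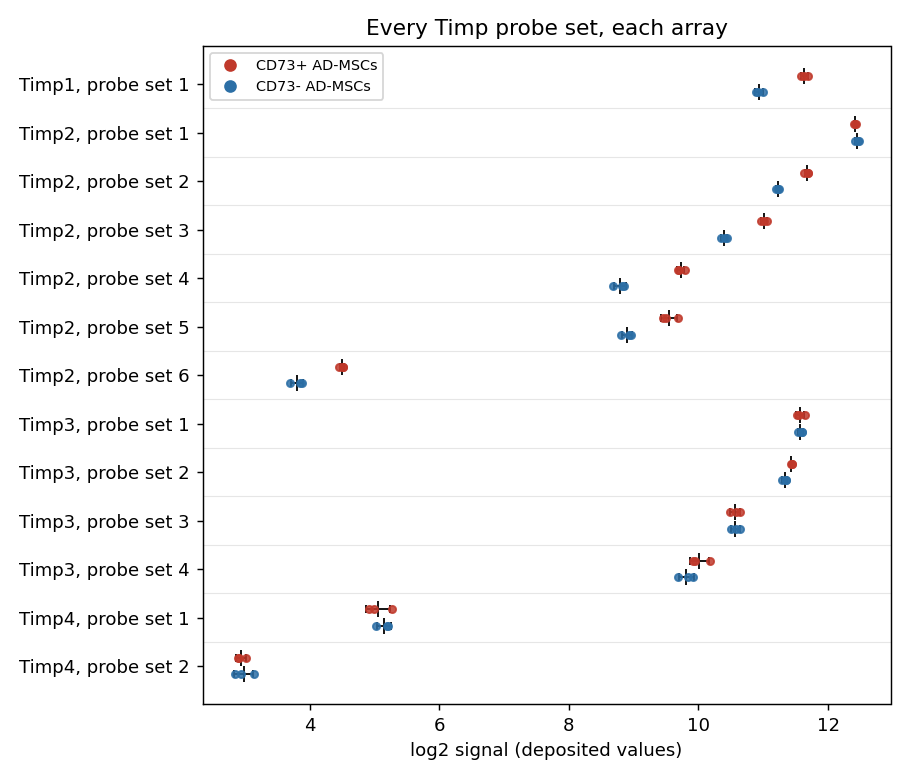
Log2 signal on each array (horizontal axis) of all 13 Timp probe sets, numbered within a gene from the brightest, with red points for CD73+ and blue points for CD73- arrays, black ticks at the means and bars of 1 SD. Red lies to the right of blue for Timp1 and for Timp2 probe sets 2 to 6, and the colours overlap on the brightest probe sets of Timp2, Timp3 and Timp4.

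Several members were read by more than 1 probe set, and these did not always give the same call. Of 32 such genes 6 (Adam12, Adam17, Adamts4, Mmp2, Mmp14 and Mmp23) rose on all their probe sets. For 4 (Adam10, Adam19, Adamts5 and Adamts12) the brightest passed and another did not. For 7 (Adam15, Adamts3, Adamts6, Adamts9, Adamts16, Adamtsl1 and Timp2) the brightest did not pass and another did, and for 15 none passed. No gene had probe sets that passed in opposite directions.

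Nearly all rises were found at higher signals. The 18193 genes were split into 4 equal groups by their mean log2 signal over all arrays, which is only a rough guide to signal over background, since probes bind unequally and no detection calls were used here. In the group of highest signal 6 of 9 members were higher, where 17.5% of all genes were, and in the next 7 of 14, where 16.3% were. Of 22 members in the group below that 1 (Adamts7) was higher, against 5.80% of all genes, and of 25 in the lowest 0, against 0.858%. Over the upper groups together 13 of 23 members were higher (16.9% of all genes), and over the lower groups 1 of 47 (3.33%).

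**Figure D4:**
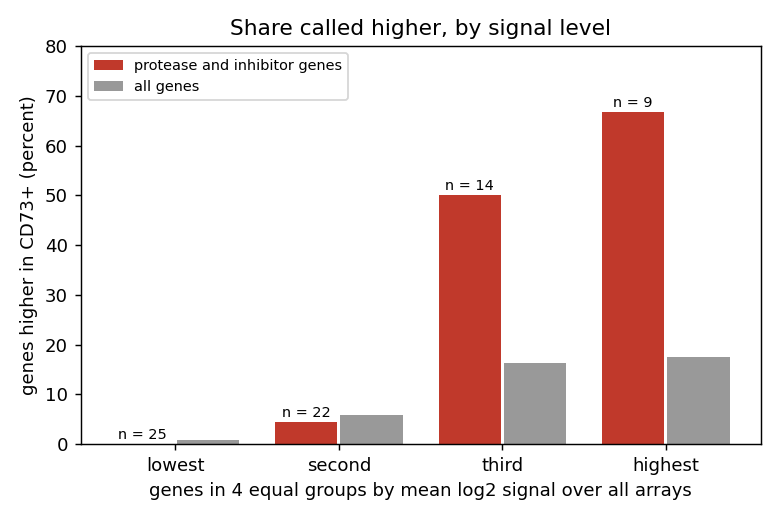
Percent of genes called higher in CD73+ AD-MSCs (vertical axis) in each of 4 equal groups of genes by mean log2 signal (horizontal axis), with red bars for the protease and inhibitor genes, their number above, and grey bars for all genes. The red bars stand far above the grey ones in both upper groups, with 7 of 14 and 6 of 9 members against 16.3% and 17.5%, and no member was higher in the lowest group, on the deposited scale.

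Genes that work with these proteases were read from 5 lists written by hand with earlier results of these data known. Beside the members 163 distinct genes were measured, of which 45 were higher and 8 lower. The shares over all genes, given beside this count and those of the lists, were 10.1% higher and 12.6% lower. Since earlier results were known when the lists were written, these counts describe the lists and do not test them. The lower count was 4 without CD73+ replicate 1 or CD73- replicate 2, 5 when CD73+ replicate 2 or 3, or CD73- replicate 1, was left out, and 6 without CD73- replicate 3. Of 30 activators, inhibitors and clearance factors of MMPs 11 were higher and 0 lower. Plat, the tissue plasminogen activator, rose by 1.23 and Thbs2, which carries Mmp2 to its clearance receptor, by 0.84. On its second brightest probe set Plat rose by 0.32, and over the mean of its probe sets by 0.77.
Of 22 regulators of ADAM sheddases 5 were higher and 1 lower. Sdc4, a syndecan, rose by 0.95 and Tspan17, a tetraspanin partner of Adam10, by 0.55. Tspan15, another such partner, fell by 0.32 on the deposited scale (limma adjusted p = 0.0427), a call that ended without any array but CD73+ replicate 1 (limma adjusted p up to 0.129). Among 48 proteins known to be shed, 14 were higher and 5 lower. Sdc1 and Selp rose by 1.08 and 1.07, and the Notch ligand Jag1 and the phosphatase Ptprz1 fell by 0.47 and 0.41 on the deposited scale. The second probe set of Ptprz1 did not pass.
Of 37 matrix substrates 14 were higher and 1 lower, where 10.1% and 12.6% of all genes were. Vcan, the proteoglycan versican, had 10.68, 10.62 and 10.70 in CD73+ and 9.47, 9.35 and 9.30 in CD73- AD-MSCs, a rise of 1.30 (SE 0.066, limma adjusted p = 0.000111). On the second brightest probe set of Vcan the rise was 0.78, and over the mean of its probe sets 0.51. Dcn, the proteoglycan decorin, rose by 1.24 on its brightest probe set, while the second, at 0.084, missed the threshold. Lgals3, a galectin cut by MMPs, fell by 0.26 on the deposited scale, a call that ended without CD73+ replicate 1 or CD73+ replicate 2 (limma adjusted p up to 0.0535). Of 32 other metalloproteases 4 were higher and 1 lower. Bmp1, the procollagen C-proteinase, rose by 0.61 and Cpz, a carboxypeptidase, by 0.48. Tll1, a relative of Bmp1, fell by 0.29 on the deposited scale, which ended without any array but CD73- replicate 3 (limma adjusted p up to 0.125). The median difference was 0.11 for the MMP regulators, 0.17 for the matrix substrates, 0.093 for the sheddase regulators, 0.053 for the shed proteins and 0.0047 for the other metalloproteases, against -0.018 over all genes.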

How the data were processed

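The 3 CD73+ and 3 CD73- AD-MSC samples were measured on Affymetrix arrays. Values are log2 signals as the authors deposited them, 1 per array for 45101 probe sets. Per the processing notes they come from RMA (background correction, quantile normalization and probe summary), whose version is not given in the sources used here. RMA removes shifts shared by most transcripts and compresses small ratios. Without 64 control probe sets 45037 remained and entered limma 3.58.1 under R 4.3.3 (lmFit, eBayes, no block, no filter). The p-values were two-sided and adjusted by Benjamini-Hochberg across the 45037, with 0.05 as the threshold. The paper's statistics section names tests of group differences for the study in general and does not mention the arrays, so limma was the main test and an unmoderated equal-variance test, here called the methods' t-test, an alternative. In the annotation 34945 probe sets carry 1 symbol, 932 several and 9160 none here, and 5 with several symbols that hold a member's name were left out. Where several probe sets read a gene, the one of highest mean was used.

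The members and lists were chosen with earlier results of these data known. Named are every member past the threshold, with values per array for the 8 largest rises, the fall, all Timps and 10 textbook members, members with another probe set that passed, and up to 2 genes of a list in each direction. The split by signal and the array values of Vcan were added after the values were seen. Simulated data with 200 changed probe sets were also run through the model, an outcome not reported here and not used for any result. The number of arrays limits the precision. Alternatives were poly-A scaling, median centring, quantile normalization and cyclic loess, a block by replicate number, leaving out each array, weighting arrays, a trend or a robust prior in eBayes, dropping probe sets under the median level, other probe sets per gene, and the methods' t-test. Figures used matplotlib 3.10.9 in Python 3.11.15.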

Additional observations from a re-analysis of the deposited data

How the results depend on the processing

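Of the 15 member genes past the threshold, 8 kept their call in every alternative run. Among them Adam8 and Timp1 have 1 probe set each, so the alternatives with other probe sets could not differ for them. The count of higher members, 14 as reported, was 11 with the replicate block and 11 with median centring. Without any 1 array it was 11 to 15. That of higher probe sets, 37, was then 32 to 37 and that of higher related genes, 45, was 31 to 38. The eBayes trend and the level filter each added Adam15, Adamts1 and Adamts9 as higher, and array weights added Adam15 and Adamts9. The mean of all probe sets added Adam15, Adamts9, Adamtsl1 and Timp2, and the second brightest probe set Adam15, Adamts6, Adamts16 and Timp2. The block ended the calls of Adam10, Adam17, Adam19 and Adam21, median centring those of Adam10, Adam17 and Adam19, the robust prior that of Adam17, the methods' t-test those of Adam21, Adamts7 and Adamtsl4, and the second brightest probe set those of Adam19 and Adamts12. The lower calls varied: without any 1 array they were 0 to 1 for member genes (1 as reported), 0 to 3 for member probe sets (2) and 4 to 6 for related genes (8). The replicate block gave 0, 0 and 5, while 2 member genes and 4 member probe sets were lower under quantile normalization and again under cyclic loess. The level filter gave 0 and 1 with 15 related genes, eBayes with a trend 15 related genes, array weights 4 member probe sets, and the methods' t-test 0 member genes and 1 probe set. The mean of all probe sets gave 2 lower member genes, and the second brightest probe set 2 with 13 related genes. Poly-A scaling made all 70 member genes, 124 probe sets and 163 related genes higher and 0 lower, and turned Adam21 to 0.62, Jag1 to 0.45, Lgals3 to 0.67, Ptprz1 to 0.51, Tll1 to 0.64 and Tspan15 to 0.60; the cause was not tested.

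Same-numbered arrays did not deviate together (correlations of deviations -0.14, 0.028 and -0.14 across probe sets, and 1 of 3 CD73+ arrays closest to its own number), so the numbers were not taken as pairs. Low signals, where most members lie, limit what could be detected.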
